A study of Rattus norvegicus with 30 samples.

Results

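The interferon response genes described here are 9 genes whose transcripts are commonly used to read a tissue's response to interferons: *Ubd*, *Wars*, *Irf1*, *Gbp2*, *Tap1*, *Irf7*, *Mx1*, *Isg15* and *Ifit3*. They were chosen by name, and each name matched 1 gene among the 32545 genes of the deposited table. *Ubd*, *Wars*, *Irf1* and *Gbp2* are called gamma-type below and *Irf7*, *Mx1* and *Isg15* type I, while *Tap1* and *Ifit3* were assigned to neither. The mRNA was sequenced from the right kidneys of male Sprague-Dawley rats, from the cortex (Cx) or the outer medulla (OM), in 30 libraries. The low salt (LS) groups ate an AIN-76A diet with 0.4% NaCl, and the HS14 and HS21 groups had been switched to 4.0% NaCl for 14 and 21 d. Each of the 6 groups, Cx LS, Cx HS14, Cx HS21, OM LS, OM HS14 and OM HS21, had 5 libraries, with replicates 1 to 5 on LS, 6 to 10 at HS14 and 11 to 15 at HS21. The labels give no age, and all groups are of the same strain and differ by diet and tissue.

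Interferons are secreted proteins that signal through paired receptors and JAK kinases to transcription factors. Type II interferon (interferon gamma), made mainly by T cells and natural killer cells, acts on genes with GAS elements, many of which serve antigen presentation, and type I interferons act through a complex that holds STAT2 and IRF9 on genes with ISRE elements, many of which are antiviral. The targets of both kinds overlap widely, and in the kidney both resident cells and infiltrating leukocytes respond to them.

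The authors' counts of read pairs on genes summed to 13953714 to 17048749 per library in Cx LS, 15379007 to 21842843 in Cx HS14 and 14641135 to 15627211 in Cx HS21. In the OM the totals were 12748841 to 14838776 in LS, 5408126 to 16557589 in HS14 and 12899490 to 15810724 in HS21. OM HS14 replicate 10 held the lowest of these totals, 5408126, and by the study's supplement it also had a larger share of its mapped bases in introns, and a smaller one in exons, than any other OM library. OM LS replicate 2 stood apart in its tissue markers: the summed level of 6 proximal tubule genes was 10848.5 CPM (a gene's count scaled to a fixed library total) in that library and 2848, 4935, 4117 and 555 CPM in replicates 1, 3, 4 and 5. Its summed level of 3 distal convoluted tubule genes was 371 CPM, and 21.6, 36.5, 29.6 and 28.02 CPM in the same 4 libraries. Among the 9 members this library was the lowest of its group for 8 and the highest for *Wars*. Cx HS14 replicate 10 also stood apart from its group. Its summed level of the proximal tubule genes was 11292 CPM, and 15836, 15922, 15684 and 15808 CPM in replicates 6 to 9. That of the distal convoluted tubule genes was 2221 CPM, and 1297, 1338, 1125 and 1135 CPM in replicates 6 to 9. Counts of all genes raised without this library are given with the comparisons of Cx HS14. Values without OM LS replicate 2 or OM HS14 replicate 10 are given with the comparisons of the OM groups.

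Levels in a library are given in CPM with libraries scaled by TMM, edgeR's trimmed mean, and levels of different members are compared only in RPKM (CPM per kilobase of the deposited gene length, mean ± SD, n = 5). In Cx LS the order of levels was *Wars* 14.3 ± 0.885, *Irf7* 11.5 ± 2.90, *Irf1* 9.74 ± 0.351, *Gbp2* 5.84 ± 1.33, *Isg15* 5.48 ± 0.728, *Mx1* 5.08 ± 1.10, *Tap1* 4.73 ± 0.526, *Ubd* 3.36 ± 4.44 and *Ifit3* 2.27 ± 0.606 RPKM. Of neighbours in that order, *Irf1* and *Gbp2* differed by more than the larger of their SDs, and the others did not. In Cx HS14 the order was *Wars* 16.8 ± 1.30, *Irf1* 14.96 ± 3.15, *Ubd* 9.09 ± 8.996, *Tap1* 7.08 ± 2.06, *Gbp2* 6.44 ± 2.30, *Irf7* 5.18 ± 3.26, *Isg15* 3.91 ± 0.588, *Mx1* 2.40 ± 1.004 and *Ifit3* 1.79 ± 0.889 RPKM, and among neighbours *Isg15* and *Mx1* differed by more than the larger SD. Cx HS21 was headed by *Ubd* at 54.6 ± 74.3, followed by *Irf1* 34.5 ± 17.0, *Gbp2* 26.3 ± 17.5, *Tap1* 19.95 ± 13.2, *Wars* 19.1 ± 5.17, *Irf7* 11.5 ± 3.71, *Isg15* 6.48 ± 0.773, *Mx1* 5.55 ± 2.10 and *Ifit3* 4.24 ± 1.42 RPKM. There, *Wars* and *Irf7*, and *Irf7* and *Isg15*, were the neighbours that differed by more than the larger SD.

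The OM began from another order. OM LS was headed by *Irf7* at 17.6 ± 7.08, followed by *Wars* 12.05 ± 0.685, *Isg15* 11.2 ± 2.82, *Irf1* 9.99 ± 3.72, *Gbp2* 9.56 ± 4.56, *Mx1* 6.01 ± 2.71, *Tap1* 5.80 ± 1.94, *Ifit3* 3.55 ± 1.34 and *Ubd* 0.327 ± 0.378 RPKM, where *Tap1* and *Ifit3*, and *Ifit3* and *Ubd*, differed by more than the larger SD. In OM HS14 the levels ran from *Gbp2* 18.4 ± 8.42 through *Irf1* 18.1 ± 7.98, *Wars* 15.2 ± 1.36, *Irf7* 12.5 ± 5.04, *Tap1* 9.04 ± 2.503, *Isg15* 8.43 ± 3.38, *Mx1* 5.52 ± 2.44 and *Ifit3* 4.02 ± 1.80 to *Ubd* 1.02 ± 1.13 RPKM, and among neighbours only *Ifit3* and *Ubd* differed by more than the larger SD. In OM HS21 they ran from *Gbp2* 31.7 ± 11.99 through *Irf1* 30.4 ± 8.79, *Tap1* 18.9 ± 7.13, *Wars* 17.6 ± 4.30, *Irf7* 17.2 ± 2.86, *Isg15* 10.8 ± 2.26, *Mx1* 8.04 ± 2.43 and *Ubd* 7.46 ± 9.50 to *Ifit3* 5.18 ± 0.989 RPKM. The neighbours that differed by more than the larger SD there were *Irf1* and *Tap1*, *Irf7* and *Isg15*, and *Isg15* and *Mx1*. *Wars* thus headed the RPKM order in Cx LS and *Irf7* in OM LS, and at HS21 *Ubd* (by the mean) and *Gbp2* did. The place of *Ubd* in Cx HS21 rests on replicates 14 and 15 (166 and 96.7 RPKM): its median was 6.79 RPKM, below the median of 30.99 RPKM of *Irf1*.

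**Figure D1:**
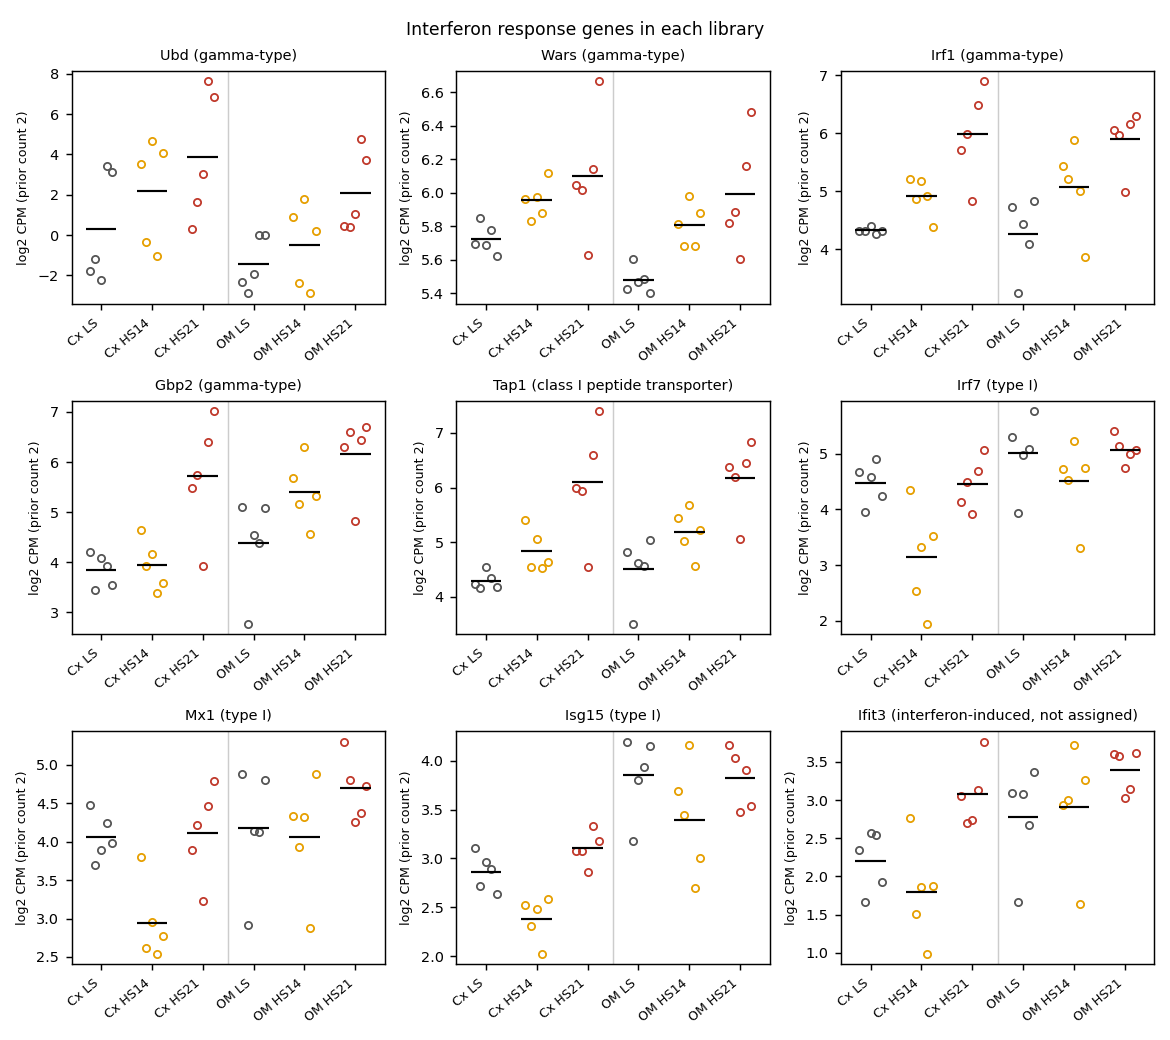
Each panel shows 1 of the 9 interferon response genes, with log2 CPM (TMM scaling, prior count 2) on the vertical axis, each point a library of the group named on the horizontal axis and each bar the mean of 5 libraries. In Cx HS21, *Ubd* spans 1.08 to 198 CPM, while *Isg15* spans 7.14 to 9.92 CPM.

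Of the 11 interferon ligands listed, 8 were in the table and 0 passed the filter on low counts. *Ifng*, the gene for interferon gamma, had 0, 1, 0, 0 and 0 counts in Cx LS replicates 1 to 5, 2, 2, 0, 1 and 1 in Cx HS14 replicates 6 to 10, and 6, 8, 1, 12 and 17 in Cx HS21 replicates 11 to 15. In the OM it had 0 counts in all 5 LS libraries, 1, 0, 0, 0 and 0 at HS14 and 6, 2, 0, 5 and 4 at HS21. The highest *Ifng* counts were in Cx HS21 replicates 14 and 15, and replicate 13 had the fewest of the HS21 libraries in both tissues. Among type I and type III ligands, *Ifnb1*, *Ifne*, *Ifnl3* and *Ifna16l1* had 0 counts in all 30 libraries, *Ifna4* had 1 count in OM LS, *Ifna5* had at most 3 counts in a group and *Ifnk* at most 7. Since the filter left the ligands out of the fit, no difference between groups was tested for any of them, and *Ifna1*, *Ifna11* and *Ifnl1* were not analysed here.

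Genes were tested with edgeR's quasi-likelihood F-test, with Benjamini-Hochberg adjustment over all genes tested in a comparison, and are said to rise or fall at an adjusted p under 0.05. Of the 6 interferon receptor genes, 5 rose and 0 fell in Cx HS21 against LS, with a median log2 ratio of 0.34. Over all 14299 genes tested there, 18.9% rose, 20.5% fell and the median was 0.00. These shares depend on the scaling: TMM gave 2702 genes raised and 2936 lowered, and total counts gave 4401 and 1653. *Ifngr1*, which encodes the ligand-binding chain for interferon gamma, was at 85.9 ± 24.9 CPM in Cx HS21 and 52.2 ± 4.89 CPM in Cx LS (mean ± SD, n = 5), which gives a log2 ratio of 0.70 ± 0.17 (SE) and adjusted p = 0.00588. *Ifnar2*, a chain of the type I receptor, was at 17.1 ± 2.20 against 12.4 ± 0.951 CPM, a log2 ratio of 0.45 ± 0.10 with adjusted p = 0.00429. *Ifnlr1*, a chain of the type III receptor, was at 4.91 ± 1.24 against 2.61 ± 0.738 CPM, a log2 ratio of 0.90 ± 0.24 with adjusted p = 0.0104. *Ifngr2* and *Ifnar1* rose by 0.23 and 0.20, and *Il10rb* was not called. Median receptor log2 ratios in the other comparisons with LS were 0.06 in Cx HS14, 0.10 in OM HS14 and 0.09 in OM HS21, with 0 receptors called in each, and 2 of 6 rose in Cx HS21 against HS14, beside 6.50% of all genes.

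Signal transducers carry the message from the receptor to the nucleus. *Stat2*, which belongs to the type I complex, was at 71.3 ± 20.1 CPM in Cx HS21 and 46.3 ± 2.48 CPM in Cx LS, a log2 ratio of 0.61 ± 0.15 with adjusted p = 0.00847. *Irf9*, the DNA-binding part of that complex, was at 25.9 ± 8.10 against 17.6 ± 2.13 CPM, a log2 ratio of 0.54 ± 0.20 with adjusted p = 0.0441. The kinase *Tyk2* rose by 0.31, and the kinases *Jak1* (0.04) and *Jak2* (0.13) were not called.

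Interferon regulatory factors are transcription factors, and 2 of the members belong to them. *Irf1* (ENSRNOG00000008144, Rnor_6.0 chr10:39109522-39116531, plus strand) is induced by interferon gamma and activates antigen presentation genes. *Irf1* in the Cx was at 19.8, 19.9, 21.1, 19.1 and 19.8 CPM in LS replicates 1 to 5, at 36.7, 29.2, 36.1, 30.2 and 20.8 CPM in HS14 replicates 6 to 10, and at 52.5, 63.4, 28.5, 89.5 and 119 CPM in HS21 replicates 11 to 15. All HS21 libraries lay above all LS libraries, replicate 15 was the highest and replicate 13 the lowest of HS21, and 1 HS14 library, replicate 10, lay within the LS range. *Irf1* in the OM was at 26.3, 9.32, 21.6, 16.8 and 28.2 CPM in LS, at 43.0, 36.9, 59.3, 32.0 and 14.5 CPM in HS14, and at 66.5, 62.7, 31.8, 71.3 and 78.7 CPM in HS21. The OM HS21 libraries also lay above all LS libraries, replicate 13 being the lowest again, and OM LS replicate 2 and OM HS14 replicate 10 were the lowest of their groups.

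The log2 ratio of *Irf1* in Cx HS21 against LS was 1.81 ± 0.30 (SE, n = 5 each) with adjusted p = 0.000744, and the two-sided exact permutation p = 0.00794 is the smallest that 5 against 5 libraries allow. In Cx HS14 against LS it was 0.60 ± 0.13 with adjusted p = 0.0353, and in Cx HS21 against HS14 it was 1.21 ± 0.31 with adjusted p = 0.0261. The HS14 call held in 2 of the 10 fits that left out a library: it held without HS14 replicate 7 or 10 and was lost without any of Cx LS replicates 1 to 5 or HS14 replicates 6, 8 and 9, with adjusted values from 0.00316 to 0.0986. In OM HS21 against LS the log2 ratio was 1.58 ± 0.31 with adjusted p = 0.0553, so *Irf1* was not called there by edgeR, and it was called without OM LS replicate 2 (1.40, adjusted p = 0.0492) or without OM HS21 replicate 13 (1.76, adjusted p = 0.0192), and with all 15 OM libraries in 1 fit (1.59, adjusted p = 0.0371). In OM HS14 the log2 ratio was 0.85 ± 0.36 with adjusted p = 0.826.

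*Irf7* (ENSRNOG00000017414, chr1:214248837-214252456, minus strand) encodes the factor that amplifies type I interferon production. *Irf7* in the Cx was at 25.3, 15.3, 23.9, 29.9 and 18.7 CPM in LS, at 20.3, 5.70, 9.95, 3.74 and 11.4 CPM in HS14, and at 17.3, 22.4, 14.9, 25.8 and 33.4 CPM in HS21. In HS14, 4 of 5 libraries lay below the lowest LS library, replicate 6 lay inside the LS range, and HS21 and LS overlapped widely. *Irf7* in the OM was at 39.1, 15.2, 31.4, 33.7 and 53.9 CPM in LS, at 26.2, 22.9, 37.5, 9.82 and 26.7 CPM in HS14, and at 42.2, 35.2, 26.6, 31.9 and 33.3 CPM in HS21. The OM groups overlapped, and the lowest values were those of LS replicate 2 and HS14 replicate 9.

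edgeR did not call *Irf7* in any diet comparison: its log2 ratio was -1.17 ± 0.37 with adjusted p = 0.116 in Cx HS14 against LS, -0.01 ± 0.22 with adjusted p = 0.983 in Cx HS21 against LS, and 1.16 ± 0.39 with adjusted p = 0.0639 in Cx HS21 against HS14. Without Cx HS14 replicate 6 it was called in the first (adjusted p = 0.0409) and the last (adjusted p = 0.0246) of these. In Cx HS21 against HS14 *Irf7* was also called by DESeq2 (1.15, adjusted p = 0.0145), by edgeR with total counts (1.27, adjusted p = 0.0455) and by edgeR with all 15 Cx libraries in 1 fit (1.16, adjusted p = 0.0276). In the OM its log2 ratio was -0.50 at HS14 and -0.05 at HS21 against LS. Of the other interferon regulatory factors, *Irf2* (0.30), *Irf8* and *Irf9* rose in Cx HS21 against LS. *Irf8*, a factor of myeloid cells, was at 62.7 ± 21.9 CPM in Cx HS21 and 28.2 ± 3.59 CPM in Cx LS, a log2 ratio of 1.13 ± 0.21 with adjusted p = 0.00167. *Irf3*, *Irf4* and *Irf5* were not called there, with log2 ratios of 0.10, -0.19 and 0.13. At HS21 in the OM *Irf5* rose against LS (1.11, adjusted p = 0.0392).

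The gamma-type target with the widest range was *Ubd* (ENSRNOG00000000768, chr20:1876173-1897814, minus strand), which encodes the ubiquitin-like modifier FAT10. *Ubd* in the Cx was at 0.153, 0.310, 0.0761, 10.8 and 8.72 CPM in LS, at 11.2, 0.658, 25.5, 0.349 and 16.5 CPM in HS14, and at 1.08, 2.94, 8.10, 198 and 115 CPM in HS21. HS21 replicates 14 and 15 stood far above the other libraries, the other 3 HS21 libraries lay within the LS range, and LS and HS14 each split into a low and a high set. *Ubd* in the OM was at 0.0613, 0, 0.127, 0.883 and 0.882 CPM in LS, at 1.70, 0.0605, 3.26, 0 and 1.03 CPM in HS14, and at 1.23, 1.19, 1.91, 27.0 and 13.2 CPM in HS21. The OM libraries with the higher values carried the same replicate numbers as in the Cx, 4 and 5 on LS, 6, 8 and 10 at HS14, and 14 and 15 at HS21, and every OM HS21 library lay above every OM LS library. By the study's methods both tissues were cut from the kidneys of each group, 5 per group, but neither the methods nor the labels say that equal numbers mean the same rat. Over 14071 genes, deviations from the group means in the Cx and OM libraries of equal number correlated at -0.08 to 0.51, over 0.1 in 12 of 15 pairs, and 13 of 15 libraries matched their own number best. The tissues were fitted as unpaired, with the replicate number as a block as an alternative.

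The log2 ratio of *Ubd* in Cx HS21 against LS was 3.97 ± 1.38 (SE) with adjusted p = 0.0395, although the groups overlapped and the two-sided exact permutation p = 0.103 (n = 5 each). The call held in 4 of 10 fits with a library left out. It was lost without HS21 replicate 14 (2.97, adjusted p = 0.114) or 15 (3.68, adjusted p = 0.0677), and without Cx LS replicate 1 (adjusted p = 0.0798), 2 (adjusted p = 0.0818), 3 (adjusted p = 0.0797) or 5 (adjusted p = 0.0558). With the share of bases in introns as a covariate the log2 ratio went from 3.97 to 11.49 (adjusted p = 0.0435). By the study's supplement every Cx HS21 library had a larger share than every Cx LS library, so this fit cannot separate it from the diet. The OM HS21 log2 ratio against LS was 4.42 ± 1.18 with adjusted p = 0.130, or 2.13 with adjusted p = 0.492 with that covariate, and the groups did not overlap. Its log2 ratio was 1.41 with adjusted p = 0.591 in Cx HS14 and 1.60 in OM HS14, where it was not called either.

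*Wars* (ENSRNOG00000004359, chr6:132771021-132802210, minus strand) encodes tryptophanyl-tRNA synthetase, whose transcription interferon gamma raises. *Wars* in the Cx was at 51.6, 57.4, 51.3, 54.7 and 49.1 CPM in LS, at 62.3, 56.8, 62.8, 58.7 and 69.3 CPM in HS14, and at 66.0, 64.6, 49.3, 70.3 and 101 CPM in HS21. In HS21 4 of 5 libraries lay above all LS libraries and replicate 13 lay near the lowest of them, and in HS14 4 of 5 did. *Wars* in the OM was at 42.9, 48.6, 44.1, 44.6 and 42.1 CPM in LS, at 56.0, 51.2, 62.9, 51.2 and 58.7 CPM in HS14, and at 56.4, 58.9, 48.5, 71.4 and 89.2 CPM in HS21. All OM HS14 libraries lay above all OM LS libraries, and in OM HS21 replicate 13 reached the LS range. The log2 ratio in Cx HS21 against LS was 0.40 ± 0.15 with adjusted p = 0.0540, and *Wars* was called without HS21 replicate 13 (adjusted p = 0.00936), with total counts (adjusted p = 0.0169) and with all 15 Cx libraries in 1 fit (adjusted p = 0.0289). It was 0.21 ± 0.07 in Cx HS14, 0.33 ± 0.11 in OM HS14 (adjusted p = 0.627) and 0.52 ± 0.15 in OM HS21 (adjusted p = 0.158). *Wars* was thus the gamma-type member with the smallest log2 ratio in all comparisons with LS but Cx HS14, where *Gbp2* was smaller.

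*Gbp2* (ENSRNOG00000031743, chr2:248276709-248293784, plus strand) encodes a guanylate-binding protein that acts on vacuoles holding microbes. *Gbp2* in the Cx was at 18.4, 10.8, 16.8, 14.9 and 11.5 CPM in LS, at 24.8, 15.1, 17.8, 10.3 and 11.9 CPM in HS14, and at 44.7, 53.4, 15.04, 84.8 and 129 CPM in HS21. HS21 replicates 11, 12, 14 and 15 lay above all LS libraries, replicate 13 lay among them, and HS14 overlapped LS. *Gbp2* in the OM was at 34.4, 6.72, 23.1, 20.7 and 33.7 CPM in LS, at 50.8, 35.6, 78.6, 23.3 and 39.9 CPM in HS14, and at 78.2, 96.3, 28.4, 86.2 and 104 CPM in HS21. The same replicate number, 13, was the OM HS21 library inside the LS range. The log2 ratio was 2.16 ± 0.44 with adjusted p = 0.00269 in Cx HS21 against LS, and in Cx HS21 against HS14 it was 2.04 ± 0.46 with adjusted p = 0.0167, and both calls held in all 10 fits with a library left out. With the share of bases in introns as a covariate neither held, with log2 ratios of 2.68 (adjusted p = 0.0541) and 2.56 (adjusted p = 0.135). That share was larger in every Cx HS21 library than in every Cx LS library, and than in every Cx HS14 library but replicate 10. These fits therefore hardly separate it from the diet. *Gbp2* was not called in Cx HS14 (0.12 ± 0.23), OM HS14 (0.94 ± 0.42) or OM HS21 (1.71 ± 0.44, adjusted p = 0.121) against LS.

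A wider list of 24 gamma-type response genes, which includes these 4, had 22 genes tested in Cx HS21 against LS, of which 20 rose and 0 fell (18.9% and 20.5% of all genes did), with a median log2 ratio of 1.68. Without the members, 17 of 18 rose, with a median of 1.57. *Wars* and *Igtp* (0.67, adjusted p = 0.0782) were not called, and *Ido1* and *Pdcd1lg2* were not tested. The chemokine gene *Cxcl9* was at 30.1 ± 30.5 CPM in Cx HS21 and 1.37 ± 0.415 CPM in Cx LS, a log2 ratio of 4.43 ± 0.87 with adjusted p = 0.00210. At HS14 in the Cx 3 of 22 rose against LS (1.14% of all genes did), *Irf1*, *Ciita* (0.57, adjusted p = 0.0463) and *Icam1* (0.48, adjusted p = 0.0496), with a median of 0.38. Of the list, 9 of 22 rose in Cx HS21 against HS14 (median 1.28), beside 6.50% of all genes. In the OM 0 were called at HS14 (median 0.64), and at HS21 3 of 22 rose, beside 0.639% of all genes (93 genes, or 9 without OM LS replicate 3): *Ciita* (1.64, adjusted p = 0.0298), *Cxcl9* (2.65, adjusted p = 0.0405) and *Cd74* (1.40, adjusted p = 0.0392), with a median of 1.41. Some of these genes, such as *Socs1* and *Irf8*, are on other lists as well.

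*Tap1* (ENSRNOG00000000457, chr20:3979035-3989669, plus strand) encodes a subunit of the transporter that loads peptides onto class I molecules. *Tap1* in the Cx was at 18.8, 17.8, 23.1, 20.2 and 18.0 CPM in LS, at 42.5, 23.2, 33.3, 22.9 and 24.6 CPM in HS14, and at 63.5, 61.0, 23.3, 96.9 and 168 CPM in HS21. All HS21 libraries lay above all LS libraries, replicate 13 by a small margin, and of the HS14 libraries only replicate 9 did not. *Tap1* in the OM was at 28.04, 11.2, 24.5, 23.4 and 32.9 CPM in LS, at 43.1, 32.4, 50.9, 23.6 and 37.0 CPM in HS14, and at 82.5, 73.0, 32.9, 87.2 and 114 CPM in HS21. There too the HS21 libraries lay above the LS libraries, with replicate 13 level with LS replicate 5 to 3 digits. The log2 ratio in Cx HS21 against LS was 2.06 ± 0.40 with adjusted p = 0.00192, called in all 10 fits with a library left out, and in Cx HS14 against LS it was 0.56 ± 0.17 with adjusted p = 0.101. Its OM HS21 value against LS was 1.68 ± 0.34 with adjusted p = 0.0604, and without OM HS21 replicate 13 *Tap1* was called there (1.88, adjusted p = 0.0146), as it was with all 15 OM libraries in 1 fit (1.68, adjusted p = 0.0215). In OM HS14 it was 0.64 ± 0.28 with adjusted p = 0.845.

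Of 14 listed genes for class I antigen processing, 13 were used, since *Tap2* has more than 1 entry in the table, and all 12 tested in Cx HS21 against LS rose (18.9% of all genes did), with a median log2 ratio of 1.38, or 1.29 over the 11 without *Tap1*. The immunoproteasome subunit gene *Psmb8* was at 33.3 ± 14.7 CPM in Cx HS21 and 5.67 ± 2.57 CPM in Cx LS, a log2 ratio of 2.55 ± 0.37 with adjusted p = 0.000364. The class I gene *RT1-A2* was at 98.6 ± 42.9 against 18.4 ± 14.8 CPM, a log2 ratio of 2.41 ± 0.45 with adjusted p = 0.00158. *Psmb9*, another immunoproteasome subunit, was at 54.6 ± 31.5 against 11.9 ± 1.59 CPM, a log2 ratio of 2.18 ± 0.36 with adjusted p = 0.000768. In Cx HS14 against LS 1 of 12 rose, beside 1.14% of all genes, *Psmb10* (0.44, adjusted p = 0.0493), with a median of 0.41, and in Cx HS21 against HS14 8 of 12 rose (median 0.99), beside 6.50%. In OM HS21 against LS 4 of 12 rose, beside 0.639% of all genes: *Psmb8* (2.01, adjusted p = 0.0194), *Psmb9* (1.73, adjusted p = 0.0327), *B2m* (adjusted p = 0.0344) and *Tapbp* (0.51, adjusted p = 0.0451), with a median of 1.23, and in OM HS14 0 were called (median 0.53).

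Among the type I targets, *Mx1* (ENSRNOG00000001959, chr11:37891156-37914983, minus strand) encodes a dynamin-like GTPase that blocks viruses. *Mx1* in the Cx was at 22.1, 12.9, 14.7, 18.8 and 15.7 CPM in LS, at 13.8, 5.99, 7.65, 5.69 and 6.70 CPM in HS14, and at 14.7, 18.5, 9.27, 21.9 and 27.6 CPM in HS21. HS14 replicates 7 to 10 lay below all LS libraries and replicate 6 inside the LS range, and HS21 overlapped LS. *Mx1* in the OM was at 29.4, 7.39, 17.5, 17.4 and 27.8 CPM in LS, at 19.97, 15.1, 19.8, 7.19 and 29.4 CPM in HS14, and at 39.4, 27.9, 18.9, 20.7 and 26.3 CPM in HS21. All 3 OM groups overlapped. In Cx HS14 against LS *Mx1* fell, with a log2 ratio of -1.10 ± 0.24 and adjusted p = 0.0407, a call that of the 10 fits with a library left out held only without HS14 replicate 6 and was lost without any of Cx LS replicates 1 to 5 or HS14 replicates 7 to 10 (adjusted values up to 0.103). Its log2 ratio was 0.11 ± 0.25 with adjusted p = 0.748 in Cx HS21 against LS, and against HS14 *Mx1* rose by 1.21 ± 0.31 with adjusted p = 0.0243. The OM log2 ratios against LS were -0.12 at HS14 and 0.40 at HS21, neither called.

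*Isg15* (ENSRNOG00000021802, chr5:173624310-173626248, minus strand) encodes a ubiquitin-like protein that is conjugated to other proteins during the antiviral response. *Isg15* in the Cx was at 8.47, 6.44, 7.69, 7.29 and 6.09 CPM in LS, at 5.61, 4.82, 5.47, 3.94 and 5.86 CPM in HS14, and at 8.30, 8.28, 7.14, 9.92 and 8.92 CPM in HS21. All HS14 libraries lay below all LS libraries and below all HS21 libraries, while HS21 and LS overlapped. *Isg15* in the OM was at 18.2, 8.90, 13.8, 15.2 and 17.6 CPM in LS, at 12.7, 10.7, 17.7, 6.33 and 7.92 CPM in HS14, and at 17.8, 16.2, 10.96, 14.9 and 11.5 CPM in HS21. The OM diet groups overlapped, and every OM LS library was above every Cx LS library. The log2 ratio in Cx HS14 against LS was -0.50 ± 0.15 with adjusted p = 0.107, and the two-sided exact permutation p = 0.00794 (n = 5 each). *Isg15* rose in Cx HS21 against HS14, by 0.73 ± 0.15 with adjusted p = 0.0120, in all 10 fits with a library left out but not with the share of bases in introns as a covariate (0.60, adjusted p = 0.220). That share was smaller in every Cx HS14 library but replicate 10 than in every Cx HS21 library, so the fit hardly separates it from the diet. Against LS *Isg15* was not called in Cx HS21 (0.23 ± 0.13, adjusted p = 0.186), OM HS14 (-0.42) or OM HS21 (-0.07).

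*Ifit3* (ENSRNOG00000022839, chr1:252906234-252911373, plus strand) encodes a member of an RNA-sensing antiviral family. *Ifit3* in the Cx was at 4.96, 3.03, 5.79, 5.69 and 3.66 CPM in LS, at 6.64, 2.70, 3.48, 1.85 and 3.54 CPM in HS14, and at 8.17, 6.34, 6.53, 8.67 and 13.5 CPM in HS21. All HS21 libraries lay above all LS libraries, and HS14 overlapped LS with replicate 6 as its highest. *Ifit3* in the OM was at 8.40, 3.02, 8.31, 6.24 and 10.2 CPM in LS, at 7.50, 7.87, 13.1, 2.99 and 9.46 CPM in HS14, and at 12.1, 11.8, 8.03, 8.69 and 12.1 CPM in HS21. OM groups overlapped. *Ifit3* rose in Cx HS21 against LS by 0.89 ± 0.25 with adjusted p = 0.0137, in all 10 fits with a library left out, and in Cx HS21 against HS14 by 1.25 ± 0.33 with adjusted p = 0.0267. It was not called in Cx HS14 (-0.36 ± 0.31), OM HS14 (0.17) or OM HS21 (0.52) against LS.

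The wider list of 52 type I response genes had 50 in the table, and *Ifit1bl* and *Oas1b* were not analysed here. Of 48 tested in Cx HS21 against LS, 18 rose and 1 fell (18.9% and 20.5% of all genes did), with a median log2 ratio of 0.49, and without the members 17 of 44 rose and 1 fell, with a median of 0.52. The members on this list are *Irf7*, *Mx1*, *Isg15* and also *Ifit3*, the 1 of them that rose. *Ifi27l2b*, of a family of small mitochondrial proteins, rose by 1.29 ± 0.32 (adjusted p = 0.00767), *Ifitm1*, which hinders viral entry, by 0.96 ± 0.17 (adjusted p = 0.00134) and *Bst2*, which tethers virions, by 0.95 ± 0.24 (adjusted p = 0.00837). At HS14 in the Cx, edgeR called 0 of 48 raised and 3 lowered (1.14% and 1.18% of all genes), *Mx1*, *Oas1a* (-1.52, adjusted p = 0.0460) and *Usp18* (-1.20, adjusted p = 0.0416), with a median of -0.15. Between HS14 and HS21 in the Cx, 22 of 49 rose (median 0.68), beside 6.50% of all genes. In the OM 0 of the list were called at HS14 (median 0.07) or at HS21 (median 0.28 over 49).

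**Figure D2:**
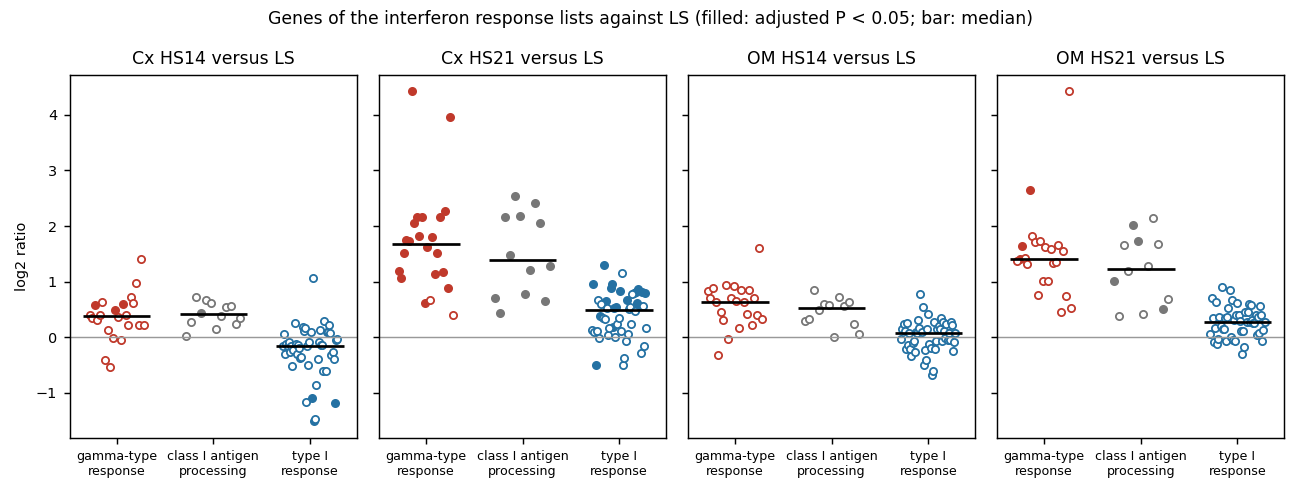
Points are the log2 ratios of genes of 3 fixed lists (gamma-type, class I antigen processing and type I response genes) in the comparisons with LS, filled where the adjusted p was under 0.05, and each bar is a list's median. The medians in Cx HS21 against LS are 1.68, 1.38 and 0.49, and in Cx HS14 against LS they are 0.38, 0.41 and -0.15.

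Negative regulators dampen the signal, and 5 of 10 rose and 0 fell in Cx HS21 against LS, where 18.9% of all genes rose and 20.5% fell, with a median log2 ratio of 0.24. *Socs1*, an inhibitor of JAK kinases, was at 8.59 ± 8.09 CPM in Cx HS21 and 1.76 ± 0.392 CPM in Cx LS, a log2 ratio of 2.27 ± 0.53 with adjusted p = 0.00567. *Socs3*, of the same family, rose by 1.59 ± 0.30 (adjusted p = 0.00159) and the phosphatase gene *Ptpn6* by 0.71 ± 0.16 (adjusted p = 0.00507). *Usp18*, which removes ISG15 from proteins, was not called there (-0.17). *Socs3* also rose in Cx HS14 against LS (1.45, adjusted p = 0.0204), where *Usp18* fell, with a list median of 0.07. Of all genes 1.14% rose and 1.18% fell there. *Ptpn6* was the 1 called in OM HS21 against LS (0.77, adjusted p = 0.00868, list median 0.26), where 0.639% of all genes rose. In OM HS14 0 were called (0.17), and 2 rose in Cx HS21 against HS14 (0.27), beside 6.50% of all genes.

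Nucleic acid sensors and their adaptors start type I interferon production, and of 16 listed 15 were in the table, *Ticam1* not being analysed here. At HS21 in the Cx 8 of 15 rose and 1 fell, beside 18.9% and 20.5% of all genes, with a median log2 ratio of 0.53. The DNA sensor *Aim2* rose by 1.70 ± 0.37 (adjusted p = 0.00390), the RNA receptor *Tlr7* by 1.57 ± 0.33 (adjusted p = 0.00314) and *Tmem173*, which encodes STING, by 1.37 ± 0.24 (adjusted p = 0.00119). The RNA sensor *Ddx58* was at 19.1 ± 2.24 CPM in Cx HS21 and 26.9 ± 3.07 CPM in Cx LS, a log2 ratio of -0.51 ± 0.10 with adjusted p = 0.00197, and it is also on the type I list as the gene that fell. 0 sensors were called by edgeR in Cx HS14 (median 0.21), OM HS14 (0.13) or OM HS21 (0.33) against LS, and 3 rose in Cx HS21 against HS14 (0.29), beside 6.50% of all genes.

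The gamma-type and type I members are set side by side here, and the difference between them was not tested. In Cx HS14 against LS, 1 of 4 gamma-type members rose (*Irf1*), where 1.14% of the 14181 genes tested rose, and 1 of 3 type I members fell (*Mx1*), where 1.18% fell. The median log2 ratio was 0.41 over the gamma-type members, -1.10 over the type I members and -0.00 over all genes. All HS14 libraries lay below all LS libraries for 1 type I member, *Isg15*, as for 2.11% of all genes. Neither call held with all 15 Cx libraries in 1 fit (adjusted p = 0.307 for *Irf1* and adjusted p = 0.0636 for *Mx1*), and DESeq2 called *Tap1* and *Isg15* besides these. DESeq2 raised 500 genes and lowered 422 there. The number of all genes that edgeR raised, 162, ran from 42 without Cx LS replicate 4 to 274 without Cx HS14 replicate 10. In Cx HS21 against LS, 3 of 4 gamma-type members and 0 of 3 type I members rose, and *Tap1* and *Ifit3* rose as well, where 18.9% of 14299 genes rose and 20.5% fell. The medians were 1.98, 0.11 and 0.00. HS21 lay wholly above LS for *Irf1*, *Tap1* and *Ifit3*, as for 12.6% of all genes. DESeq2 also called 0 of the 3 type I members in that comparison, where 0 had an unadjusted p under 0.05, and it called *Wars* in addition. With total counts 1 of the 3, *Isg15*, was called there (0.36, adjusted p = 0.0455, from 0.23 with TMM). That scaling raised 4401 and lowered 1653 of all genes, and it moved their median log2 ratio from 0.00 to 0.13.

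In Cx HS21 against HS14, 2 of 4 gamma-type and 2 of 3 type I members rose, with *Tap1* and *Ifit3*, where 6.50% of 14395 genes rose. DESeq2, edgeR with total counts and edgeR with all 15 Cx libraries in 1 fit each called 7 members there, with *Irf7* added, so that all 3 type I members rose. The 935 genes that rose ran from 337 without Cx HS14 replicate 8 to 1476 without Cx HS14 replicate 10. Of all genes the 3 alternatives raised 1469, 2084 and 1500 and lowered 1854, 644 and 1905. The medians were 1.62, 1.16 and 0.01, and HS21 lay wholly above HS14 for 1 member, *Isg15*, as for 3.59% of all genes. The calls of *Irf1*, *Tap1*, *Mx1* and *Ifit3* here were lost when HS14 replicate 7, 8 or 9 or HS21 replicate 14 or 15 was left out, with adjusted values of at most 0.0640, 0.0822, 0.0645 and 0.0663 in these fits. With the share of bases in introns as a covariate none of the 6 was called: the log2 ratio was 1.77 for *Irf1* (adjusted p = 0.117), 2.56 for *Gbp2* (adjusted p = 0.135), 1.87 for *Tap1* (adjusted p = 0.181), 1.34 for *Mx1* (adjusted p = 0.223), 0.60 for *Isg15* (adjusted p = 0.220) and 1.28 for *Ifit3* (adjusted p = 0.259). That fit raised 2 and lowered 16 of all genes, where the fit without it raised 935 and lowered 1395. By the study's supplement every Cx HS14 library but replicate 10 had a smaller intron share than every Cx HS21 library. The fit with the covariate therefore hardly separates that share from the diet, and the lost calls do not decide between them. The comparisons of HS14 and HS21 with LS share the LS libraries, and the comparison of HS21 with HS14 shares libraries with both, so their values are given side by side and were not compared with each other.

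In the OM, edgeR called 0 of 9 members in HS14 against LS, where it called 0.00694% of 14417 genes in either direction. DESeq2 called 0 members as well, where it raised 90 and lowered 20 of all genes. By edgeR 4 members had an unadjusted p under 0.05. *Wars* was the 1 member whose HS14 libraries lay wholly above LS, as for 1.05% of all genes, and the medians were 0.90 (gamma-type), -0.42 (type I) and -0.02 (all genes). Without OM HS14 replicate 10 edgeR called 0 members as well, with medians of 1.003, -0.38 and -0.01, and the log2 ratio of *Mx1* went from -0.12 to -0.38. Without OM LS replicate 2 it also called 0, with medians of 0.68, -0.56 and -0.00. In OM HS21 against LS edgeR called 0 of 9, where 0.769% of 14555 genes were called and 0.639% rose, and 5 members had an unadjusted p under 0.05. With all 15 OM libraries in 1 fit edgeR called 2, *Irf1* and *Tap1*, and raised 179 and lowered 20 of all genes. The number of genes raised by the fit of these 10 libraries, 93, ran from 9 without OM LS replicate 3 to 159 without OM HS21 replicate 13. DESeq2 called the 5 members with an unadjusted p under 0.05: *Ubd* (4.49, adjusted p = 0.00178), *Wars* (0.53, adjusted p = 0.0486), *Irf1* (1.59, adjusted p = 0.000158), *Gbp2* (1.72, adjusted p = 0.00563) and *Tap1* (1.69, adjusted p = 0.000205). Over all genes DESeq2 raised 555 and lowered 166, where edgeR raised 93 and lowered 19. HS21 lay wholly above LS for *Ubd*, *Irf1* and *Tap1*, as for 2.64% of all genes, each with a two-sided exact permutation p = 0.00794 (n = 5 each). The medians were 1.65, -0.05 and -0.03. Without OM LS replicate 2 they were 1.44, -0.20 and -0.01, *Irf1* was called, and *Ubd* (4.15, adjusted p = 0.167), *Gbp2* (1.48, adjusted p = 0.0911) and *Tap1* (1.504, adjusted p = 0.0630) were not. In OM HS21 against HS14 edgeR called 0 of 9 and 0% of 14499 genes, and 3 members had an unadjusted p under 0.05. DESeq2 called 0 members there, where it raised 20 and lowered 11 of all genes. The medians were 0.75, 0.44 and 0.00, or 0.65, 0.50 and 0.00 without OM HS14 replicate 10, where edgeR called 0 members too.

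**Figure D3:**
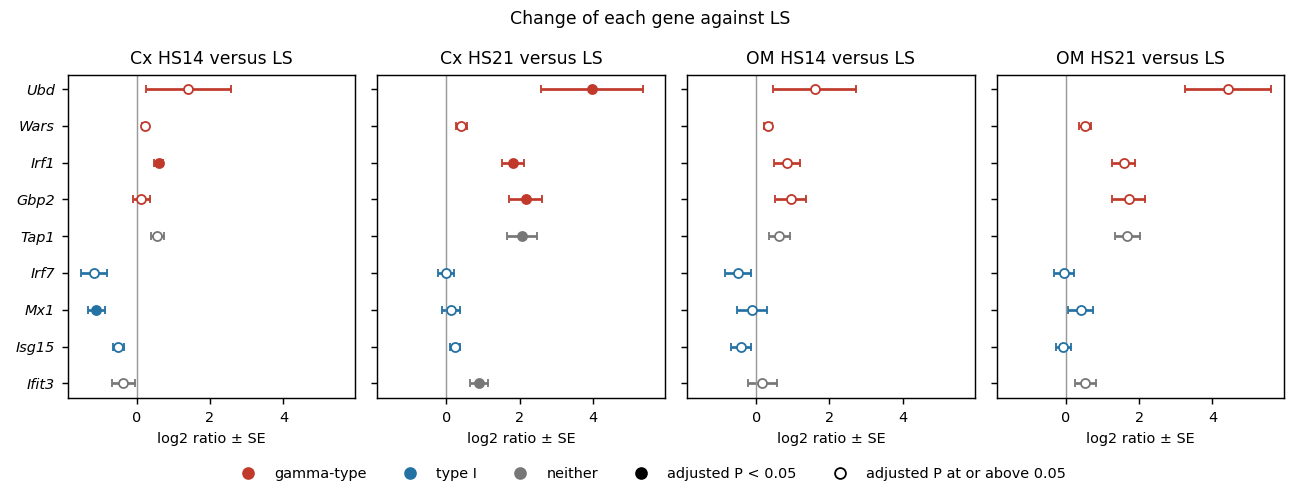
Log2 ratios of the 9 members, with their SE as error bars, in the 4 comparisons with LS, with gamma-type members in red, type I members in blue and *Tap1* and *Ifit3* in grey; filled points had an adjusted p under 0.05. At HS21 the gamma-type medians are 1.98 (Cx) and 1.65 (OM), against type I medians of 0.11 and -0.05.

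A call in the Cx and none in the OM does not show that the tissues differ, so the tissue by diet interaction was tested. It called 0 of 9 members at HS21, where 0.665% of 15194 genes were called, and 0 of 9 at HS14, where 0% of 15091 genes were. DESeq2 called 0 members in both, where it raised 341 and lowered 199 of all genes at HS21, and 8 and 3 at HS14. By edgeR 0 members had an unadjusted p under 0.05 in either. The interaction log2 ratio at HS21 ran from -0.45 for *Gbp2* to 0.44 for *Ubd*, with medians of -0.06 over the gamma-type members, -0.05 over the type I members and -0.06 over all genes. At HS14 it ran from 0.04 for *Tap1* to 0.94 for *Mx1*, with medians of 0.18, 0.63 and -0.06. The share of all genes called at HS21 rests on OM LS replicate 2: without it 729 genes were raised and 546 lowered, where 68 and 33 were with it. The fit without it called 0 members at HS21 as well, with log2 ratios from -0.67 for *Gbp2* to 0.20 for *Ubd* and medians of -0.10 and -0.22. At HS14 0 members were called without OM LS replicate 2 (medians 0.09 and 0.45) or without OM HS14 replicate 10 (0.31 and 0.61).

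On the LS diet, 1 of 8 members tested was higher in the OM than in the Cx, where 21.3% of 14295 genes were higher, and 1 was lower, where 19.5% were lower. *Isg15* was the higher one, by 1.02 ± 0.18 with adjusted p = 0.00140, with no overlap between tissues, as for 13.2% of all genes in that direction. *Wars* was the lower one, with a log2 ratio of -0.26 ± 0.07 and adjusted p = 0.0148, with no overlap, as for 15.9% of all genes. Both calls held in all 10 fits with a library left out and with the replicate number as a block. Neither held with the share of bases in introns as a covariate, where *Isg15* was at 0.33 (adjusted p = 0.619) and *Wars* at -0.13 (adjusted p = 0.660). By the study's supplement every OM LS library had a larger share than every Cx LS library, so this fit cannot separate tissue from intron share. Of all genes it called 482 higher and 423 lower in the OM, where 3051 and 2794 were called without the covariate. Without OM LS replicate 2, *Gbp2* (0.92, adjusted p = 0.00334), *Tap1* (0.45, adjusted p = 0.00806), *Irf7* (0.78, adjusted p = 0.00975) and *Ifit3* (0.81, adjusted p = 0.0102) were called too. *Ubd* did not pass the filter with all 10 libraries. Without Cx LS replicate 3 *Ubd* was called lower in the OM (adjusted p = 0.0471). Its log2 ratio ran from -3.65 to -3.03 over those fits with a library left out in which it passed the filter. Scaling by total counts moved the median log2 ratio of all genes from 0.03 to 0.27 in this comparison and the genes higher and lower in the OM from 3051 and 2794 to 5546 and 1842. With total counts *Wars* went from -0.26 to -0.02 and lost its call (adjusted p = 0.779). *Irf7* went from 0.60 to 0.88 (adjusted p = 0.0437) and *Ifit3* from 0.64 to 0.91 (adjusted p = 0.0456), and both gained a call. All of these ratios moved in the direction of the median of all genes, which this scaling shifts together. The medians were 0.03 over 3 gamma-type members and 0.60 over 3 type I members, and of the wider lists 5 of 21 gamma-type genes were higher and 5 lower (median -0.07), 3 of 12 class I genes were higher and 1 lower (0.17), and 10 of 48 type I genes were higher and 1 lower (0.27). Of receptors 2 were higher and 1 lower, of negative regulators 2 and 0, and of sensors 4 and 2.

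In bulk tissue, fewer cells of a type and less RNA per cell cannot be told apart, and the same holds for more of either. Of the markers below, the most abundant is the one with the highest mean CPM, which takes no account of gene length. The summed level of 8 of 8 general leukocyte markers was 170, 130, 140, 123 and 119 CPM in Cx LS, 247, 246, 209, 246 and 169 CPM in Cx HS14, and 398, 367, 230, 532 and 683 CPM in Cx HS21. The OM sums were 219.5, 94.6, 175.5, 119.8 and 218.5 CPM in LS, 269, 306, 298, 272 and 251.6 CPM in HS14, and 468, 382, 321, 459 and 474 CPM in HS21. *Lcp1* was the most abundant of them, none was at 0, replicate 13 was the lowest HS21 library in both tissues, and OM LS replicate 2 was the lowest of all. All 7 of 7 tested rose in Cx HS21 against LS (median log2 ratio 1.80), in Cx HS14 4 of 7 (0.77) and in OM HS21 4 of 7 (1.43). Of all genes 18.9%, 1.14% and 0.639% rose in these comparisons. Their part in the results of the members was not tested.

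T cell markers, 9 of 10 found with *Cd4* the most abundant, summed to 35.9, 34.2, 37.7, 31.1 and 24.8 CPM in Cx LS, 54.6, 59.4, 49.9, 59.2 and 43.3 CPM in Cx HS14, and 99.2, 78.1, 53.6, 142 and 179 CPM in Cx HS21. *Cd4*, which rat macrophages also express, gave 25.7 of the mean of 32.7 CPM in Cx LS and 67.8 of 110.3 CPM in Cx HS21. OM sums of the T cell list were 46.1, 14.7, 42.0, 26.8 and 57.9 CPM in LS, 66.4, 61.8, 77.8, 70.7 and 63.0 CPM in HS14, and 109, 76.9, 66.3, 126 and 134 CPM in HS21. Of those tested, 7 of 7 rose in Cx HS21 (median 2.57), beside 18.9% of all genes, and in OM HS21 1 of 8 (1.81), beside 0.639%. Cytotoxic lymphocyte markers, 9 of 10 found with *Klrk1* the most abundant and *Gzmb* left out for having more than 1 entry, summed to 15.9, 12.8, 15.8, 13.05 and 12.1 CPM in Cx LS, 18.7, 17.3, 17.2, 14.3 and 11.9 CPM in Cx HS14, and 29.7, 30.6, 15.5, 44.7 and 75.4 CPM in Cx HS21. Their OM sums were 10.7, 3.19, 7.67, 5.61 and 7.06 CPM in LS, 16.8, 11.98, 10.7, 7.61 and 11.5 CPM in HS14, and 31.1, 24.0, 12.4, 28.8 and 58.5 CPM in HS21. Replicate 13 again had the lowest HS21 sum in both tissues, and beside the same shares of all genes 5 of 7 rose in Cx HS21 (1.26) and 1 of 8 in OM HS21. The part of these cells in the *Ifng* counts and the members was not tested.

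Macrophage markers, 10 of 10 found with *Lyz2* the most abundant, summed to 312, 245, 369, 313 and 324 CPM in Cx LS, 600.4, 502, 727, 743 and 396 CPM in Cx HS14, and 1269.98, 734, 481, 1907 and 3331 CPM in Cx HS21. OM sums of the macrophage list were 581, 162, 567, 403 and 863 CPM in LS, 839, 727, 1241, 1045 and 373 CPM in HS14, and 1803, 836, 835, 1658 and 2151 CPM in HS21. In Cx HS21, where 18.9% of all genes rose against LS and 20.5% fell, 9 of 9 tested rose (median 1.66), and in OM HS21 0 of 9 were called (1.33). Plasmacytoid dendritic cell markers, 7 of 8 found, summed to 70.4, 58.5, 65.4, 63.9 and 71.1 CPM in Cx LS, 79.6, 83.7, 80.1, 81.4 and 74.5 CPM in Cx HS14, and 106, 114, 86.7, 153 and 158 CPM in Cx HS21. *Irf8* was the most abundant of these in the Cx, *Ly6d* was at 0 in all Cx libraries, *Siglech* was at 0 in Cx HS14, and 3 of 5 tested rose in Cx HS21 (0.69). *Irf8*, also on the gamma-type list, gave 28.2 of the mean of 65.9 CPM in Cx LS and 62.7 of 123.7 CPM in Cx HS21. *Tlr7* is also on the list of sensors, so the sum is not specific to these cells. B cell markers summed to at most 4.27 CPM in any library and 0 of 6 were tested in the Cx. Neutrophil markers, 6 of 6 found with *Csf3r* the most abundant, summed to 2.59, 2.72, 3.12, 2.99 and 1.80 CPM in Cx LS, 15.1, 8.55, 18.0, 33.7 and 4.51 CPM in Cx HS14, and 12.8, 12.2, 7.97, 16.5 and 18.7 CPM in Cx HS21. Of the neutrophil list 2 of 2 tested rose in Cx HS21 (2.76), and *Elane* was at 0 in all Cx libraries. Of the kidney lists in Cx HS21 against LS, beside the same 18.9% and 20.5% (2702 and 2936 genes, or 4401 and 1653 with total counts), 2 of 6 endothelial markers rose (0.10), 6 of 6 proximal tubule markers fell (-0.83), 3 of 4 thick ascending limb markers rose (0.63), 2 of 2 distal convoluted tubule markers rose (0.77) with *Pvalb* not tested, and 4 of 4 collecting duct principal cell markers rose (0.96). Against Cx LS, where 21.3% of all genes were higher and 19.5% lower, OM LS had 5 of 6 proximal tubule markers lower (-2.55), 2 of 2 distal convoluted tubule markers lower (-2.66) and 4 of 4 thick ascending limb markers higher (2.73). The part of any of these lists in the members' values was not tested.

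Likeness between genes is given as the correlation of log2 CPM over the 30 libraries (n = 30) after the mean of each tissue was subtracted, among 13534 genes, as a description, since the libraries share their diet groups. *Irf1* was most like *Ifi47* (r = 0.98, rho = 0.96), *Apol3* (r = 0.98, rho = 0.96) and *Hcls1* (r = 0.97, rho = 0.97). *Gbp2* was most like *Tap1* (r = 0.96, rho = 0.92), *Gbp5* (r = 0.96, rho = 0.93) and *Irgm* (r = 0.96, rho = 0.92), and *Tap1* most like *RT1-CE7* (r = 0.97, rho = 0.94), *Gbp2* and *Trpm2* (r = 0.96, rho = 0.95). *Wars* was most like *Cd72* (r = 0.88, rho = 0.83), *Ciita* (r = 0.85, rho = 0.79) and *Tapbp* (r = 0.84, rho = 0.77), and *Ubd* had the lowest leading values, with *Tapbp* (r = 0.72, rho = 0.67), *Clic2* (r = 0.71, rho = 0.69) and *RGD1309362* (r = 0.70, rho = 0.64). *Irf7* was most like *Oas1a* (r = 0.93, rho = 0.84), *Oas1k* (r = 0.92, rho = 0.84) and *Oas2* (r = 0.91, rho = 0.78), *Mx1* most like *Usp18* (r = 0.89, rho = 0.85), *Irf7* (r = 0.89, rho = 0.85) and *Ifit2* (r = 0.86, rho = 0.85), and *Isg15* most like *AABR07058464.1* (r = 0.90, rho = 0.89), *Oas1k* (r = 0.87, rho = 0.83) and *Apol9a* (r = 0.86, rho = 0.85). *Ifit3* was most like *Uba7* (r = 0.92, rho = 0.93), *XAF1* (r = 0.86, rho = 0.85) and *Gbp1* (r = 0.85, rho = 0.83). Among the members themselves r was 0.92 for *Irf1* and *Gbp2* and 0.89 for *Irf7* and *Mx1*, and 0.29 for *Irf1* and *Irf7* and 0.07 for *Wars* and *Isg15*, the lowest. Pairs across the types also reached 0.67 (*Gbp2* and *Mx1*) and 0.55 (*Gbp2* and *Isg15*), beside 0.60 (*Ubd* and *Irf1*) and 0.62 (*Ubd* and *Gbp2*) within the gamma-type.

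Promoters of 8 of the 9 members were in the RefSeq table of rat promoters (build GRCr8, which differs from the Rnor_6.0 build of the gene positions above), *Wars* under the name Wars1; *Isg15* was not in it. Each entry runs from 250 bases before to 50 after the start, and was searched on both strands for 2 motifs, an ISRE-type motif spelled as GAAA, then any 2 bases, then GAAA, and a GAS-type motif spelled TTCNNNGAA. Of 33469 promoters of this length, 3.92% held the first and 8.87% the second, and 14 held overlapping matches of both. The ISRE-type motif was in the promoters of *Gbp2* (31 bases before the start), *Tap1* (121), *Irf7* (69) and *Ifit3* (44), each time on the strand opposite to the gene, and the GAS-type motif in that of *Irf1* (142 bases before the start). *Ubd*, *Wars* and *Mx1* held neither set of letters in this window. The 5 stretches of 100 bases that hold a match are shown because they let members of both types be compared, with the matched letters in capitals, read in the direction of the gene. They lie at chr10:38417748-38417847 (plus strand, *Irf1*), chr2:234005651-234005750 (plus strand, *Gbp2*), chr20:4668610-4668709 (minus strand, *Tap1*), chr1:205800038-205800137 (minus strand, *Irf7*) and chr1:241527237-241527336 (plus strand, *Ifit3*). A match is a description of letters and was not tested as a binding site.
Irf1: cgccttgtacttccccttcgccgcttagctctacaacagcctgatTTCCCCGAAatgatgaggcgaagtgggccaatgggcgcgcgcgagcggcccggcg
Gbp2: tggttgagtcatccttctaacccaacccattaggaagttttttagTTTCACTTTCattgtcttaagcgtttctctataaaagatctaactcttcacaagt
Tap1: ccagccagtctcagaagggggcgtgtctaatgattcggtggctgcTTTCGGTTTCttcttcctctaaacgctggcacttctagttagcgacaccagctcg
Irf7: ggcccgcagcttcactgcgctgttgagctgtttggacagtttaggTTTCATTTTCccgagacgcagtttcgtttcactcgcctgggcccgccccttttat
Ifit3: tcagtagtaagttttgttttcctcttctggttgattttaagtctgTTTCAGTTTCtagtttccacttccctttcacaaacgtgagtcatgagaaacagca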

How the data were processed

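The deposited table holds counts per gene in 30 columns, which the authors made by aligning poly(A)-selected, unstranded paired reads to Ensembl Rnor_6.0 with HISAT2 2.0.5 and counting with featureCounts 1.5.0-p3. The gene length in bases, deposited by the authors, was used for RPKM only. The 30 FPKM columns and the authors' comparison columns (group means, log2 fold changes and p-values of DESeq2) were not used. Pairs of groups, 5 libraries each, were fitted in edgeR 4.0.16 (R 4.3.3; filterByExpr, TMM, glmQLFit, glmQLFTest) with Benjamini-Hochberg adjustment over all genes tested, and single members also by two-sided exact permutation tests. The 9 comparisons include 2 interactions of tissue and diet. SE is the log2 ratio divided by the root of F. From each list, up to 3 raised and 3 lowered genes with the largest log2 ratio in Cx HS21 and a mean of at least 1 CPM were named; ligands, receptors, transducers and regulatory factors could all be named. Genes called in other comparisons, and genes of a list that were not called, were named after their values were seen. For likeness the 3 genes with the highest Pearson correlation were named. Alternatives were DESeq2 1.42.0, its size factors, total counts, no filter, a mean of at least 1 CPM, the share of bases in introns as a covariate, all 15 libraries of a tissue in 1 fit, a replicate block, and each library left out. Lists with counts given are ligands, receptors, negative regulators, sensors, gamma-type, class I and type I response genes, and 12 lists of cell type markers. The members and lists were chosen with earlier results of these data known. Procedures were tested on simulated data. Precision is limited by 5 libraries per group.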

Additional observations from a re-analysis of the deposited data

Results flagged for a closer look

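In each of 54 sets of 5 libraries (9 genes in 6 groups), the gap between the most extreme library and its nearest neighbour was divided by the range of the group. In 1 set this ratio was above Dixon's critical value of 0.71: *Mx1* in Cx HS14, where replicate 6 stood at 13.8 CPM, the next library at 7.65 CPM and the lowest at 5.69 CPM, a ratio of 0.757. Chance gives about 1 in 20 such sets a ratio above the critical value. The cause was not tested. Without this library *Mx1* in Cx HS14 against LS had a log2 ratio of -1.39 with adjusted p = 0.0121, and with it -1.10 with adjusted p = 0.0407.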

How the results depend on the processing

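Of 559 log2 ratios of a member under an alternative other than leaving out a library, 511 kept their direction and side of the threshold, 12 lost a call, 18 gained one and 18 changed sign. With 1 library left out these numbers were 876, 43, 10 and 51 of 980. Fits of other list genes were not repeated. The cause of each change below was not tested.

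The number of members called in Cx HS14 against LS, 2, became 4 with DESeq2 and 0 with all 15 Cx libraries in 1 fit, and in OM HS21 against LS, 0, it became 5 with DESeq2 and 2 with all 15 OM libraries (*Irf1* and *Tap1*). In Cx HS21 against HS14 it became 7, with *Irf7* added, with DESeq2, total counts or all 15 Cx libraries. With the share of bases in introns as a covariate it became 0 in Cx HS21 against HS14 (from 6) and 0 in OM LS against Cx LS (from 2). That share nearly separates the groups in the first comparison and wholly separates them in the second. These fits therefore cannot tell the share from the group. Of the 6 in Cx HS21 against HS14, 5 had a log2 ratio at least as large with the covariate, and *Isg15* went from 0.73 to 0.60. With each library left out it ran from 0 to 2 in Cx HS14 against LS, from 2 to 7 in Cx HS21 against HS14, from 0 to 2 in OM HS21 against LS and from 2 to 6 in OM LS against Cx LS.

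Sign changes concerned log2 ratios that were not called. *Irf7* in Cx HS21 against LS was 0.0015 with DESeq2, 0.0076 with its size factors, 0.13 with total counts and 0.45 with the intron covariate. With that covariate, *Irf7* was 0.23 and *Isg15* 0.25 in OM HS21 against LS, and in OM LS against Cx LS *Irf1* was -0.75, *Gbp2* -0.62, *Tap1* -0.34 and *Mx1* -0.99. Every OM LS library had a larger intron share than every Cx LS library, so the fit of these groups cannot separate tissue from that share. In the interaction at HS21 the covariate gave -3.40 for *Ubd*, -0.085 for *Wars*, 0.26 for *Irf7* and 0.13 for *Isg15*. With a replicate block, *Irf1* was -0.055 in OM LS against Cx LS, *Irf7* 0.055 in the interaction at HS21 and *Ubd* -0.23 in that at HS14. With total counts *Tap1* was -0.0033 in the interaction at HS14.

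With 1 library left out, log2 ratios ran across 0 for *Gbp2* in Cx HS14 (-0.093 to 0.25), *Irf7* (-0.17 to 0.11) and *Mx1* (-0.068 to 0.28) in Cx HS21, *Mx1* (-0.38 to 0.080) and *Ifit3* (-0.061 to 0.38) in OM HS14, and *Irf7* (-0.24 to 0.15) and *Isg15* (-0.20 to 0.021) in OM HS21, all against LS, and for *Irf1* in OM LS against Cx LS (-0.11 to 0.19). In the interaction at HS21 they ran from -0.58 to 1.48 for *Ubd*, -0.018 to 0.29 for *Wars*, -0.41 to 0.042 for *Irf1*, -0.61 to 0.046 for *Tap1* and -0.22 to 0.16 for *Irf7*, and in that at HS14 from -0.69 to 0.73 for *Ubd*, -0.13 to 0.21 for *Tap1* and -0.14 to 0.22 for *Isg15*.

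Scaling by total counts moved the median log2 ratio of all genes from 0.00 to 0.13 in Cx HS21 against LS, where it added *Wars* and *Isg15* to the 5 members called, from 0.01 to 0.13 in Cx HS21 against HS14 and from -0.06 to -0.16 in the interaction at HS21. It raised 4401 and lowered 1653 genes in Cx HS21 against LS (2702 and 2936 with TMM), and 2084 and 644 in Cx HS21 against HS14 (935 and 1395). In Cx HS21 against LS, *Gbp2* lost its call with the intron covariate while its log2 ratio went from 2.16 to 2.68 (adjusted p = 0.0541), and *Ubd*, *Irf1*, *Tap1* and *Ifit3* were called under all alternatives other than leaving out a library, with a log2 ratio of *Ubd* from 3.97 to 11.49, the highest with the intron covariate. Every Cx HS21 library had a larger intron share than every Cx LS library, so that fit cannot separate the share from the diet. The filter on low counts limits the ligands, of which none passed the filter and none was tested, and 5 libraries a group limit the precision of *Ubd*.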
